A study of Caenorhabditis elegans with 2 samples.

Results

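The 133 intronic sites described here are regions of LIN-29::EGFP binding whose summit, the base of highest signal, lay in an intron of a protein-coding gene. They were chosen by the position of the summit from the 1023 regions made by merging the overlapping peaks of 4 thresholded peak lists. Signal entered through those lists' thresholds and through the summit, which is that of a region's strongest peak. Kept were summits in an intron and in no annotated exon, with no protein-coding 5′ end in the 1000 bp downstream of them, and not within 500 bp of a tRNA, snRNA or snoRNA gene. The 133 sites are 13.0% of all regions. The remaining 890 regions were 365 promoter sites, 212 sites near those small RNA genes, 166 other intergenic sites and 147 exonic sites. Of 291 summits in an intron of any coding transcript, 183 were in no exon, and 31 of these lay near a small RNA gene and 19 in a promoter window, which leaves the 133.

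LIN-29 was profiled by chromatin immunoprecipitation with sequencing (ChIP-seq) and an anti-GFP antibody. The material was whole Caenorhabditis elegans of strain RW12227, whose allele st12227, on chromosome II, carries lin-29::TY1::EGFP::3xFLAG after CRISPR inserted the tag into the worm's own lin-29 gene. All animals were L4 larvae of 49 hours, grown from L1 larvae starved after bleaching, and chromatin was sonicated to 200 to 800 bp. The series has 1 group of 2 biological replicates of this 1 strain, with no second genotype, stage or treatment, and no control library was analysed here. Whole animals were used, so strong binding in few cells and weak binding in many cannot be told apart.

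LIN-29 is a zinc finger transcription factor related to EGR and the last acting member of the heterochronic pathway, which sets the order of developmental events. It makes hypodermal seam cells leave their larval program for the adult one, and it also acts in vulval and uterine connection and in cells of the male tail. Introns of C. elegans are mostly short. The long ones can hold enhancers, and they can hold the start sites of shorter transcripts of the same gene, so that an intronic site may lie upstream of such an internal start.

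Sequences were taken only from named sites with a single-copy window, one whose 31-mers all occur once in the genome, and not from all of those. Of the 12 strongest sites, those of max-2, mod-5, cmk-1, brc-1 and K11D2.4 are not printed. Those of K11D2.4 and daf-16 were left out although single-copy. The sequences printed are thus a selection, of some strong sites and of others picked for what they hold. Each is the 101 bp centred on a summit, read from the RefSeq genome of WBcel235 (ce11) on its plus strand and written 5′ to 3′. Capitals mark each match, on either strand, to ACGCAG, which reads CTGCGT from the opposite side, or to GAGAGA, which then reads TCTCTC. Both 6-mers had been picked from all sites of these data before, so their presence is a description. The strongest site of all, in mom-1 at chrX:6296543-6296643, and the next, in Y41G9A.17 at chrX:2997044-2997144, had no match to either 6-mer. Each window carries a stretch that occurs in it at 2 places, of 8 bases in mom-1 and of 11 bases in Y41G9A.17. Such stretches are not particular to these sites, since the longest in each window printed below has 5 to 16 bases. The site of max-2, not printed, had a signal of 197 and a match to both 6-mers.
mom-1: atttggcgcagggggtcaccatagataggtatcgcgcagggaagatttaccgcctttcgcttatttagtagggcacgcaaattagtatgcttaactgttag
Y41G9A.17: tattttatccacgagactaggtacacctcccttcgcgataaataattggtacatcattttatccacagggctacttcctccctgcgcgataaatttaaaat

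The next set carries ACGCAG preceded by GAG, that is GAGACGCAG, a 9-mer found at 14 of the 133 sites. The sites are in epg-9 at chrIV:2602116-2602216, in Y111B2A.12 at chrIII:12612608-12612708, in Y43F8B.2 at chrV:19529329-19529429, in nurf-1 at chrII:14405313-14405413 and in pdk-1 at chrX:1323154-1323254. The epg-9 window holds 2 copies of the 9-mer, 29 bp apart on the same strand, and a GAGAGA match, and the nurf-1 window also holds GAGAGA runs.
epg-9: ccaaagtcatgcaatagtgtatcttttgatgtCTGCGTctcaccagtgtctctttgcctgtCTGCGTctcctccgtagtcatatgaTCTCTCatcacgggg
Y111B2A.12: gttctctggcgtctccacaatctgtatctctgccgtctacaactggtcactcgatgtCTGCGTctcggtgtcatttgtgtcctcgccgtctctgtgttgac
Y43F8B.2: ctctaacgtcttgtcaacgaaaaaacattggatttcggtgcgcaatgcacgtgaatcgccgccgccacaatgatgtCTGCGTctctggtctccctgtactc
nurf-1: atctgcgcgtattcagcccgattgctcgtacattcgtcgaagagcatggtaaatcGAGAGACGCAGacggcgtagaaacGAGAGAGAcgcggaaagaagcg
pdk-1: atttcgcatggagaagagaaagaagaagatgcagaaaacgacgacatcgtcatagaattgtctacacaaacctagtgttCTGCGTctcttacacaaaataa

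The 4 sites of pqn-41 lie in the same intron, at chrIII:1921427-1921527, chrIII:1923642-1923742, chrIII:1925280-1925380 and chrIII:1926642-1926742, and are listed in the direction of transcription. The windows of the first pair share the 14 bases GCCGATTCGTCGTG, which occur at 2 places in the genome, both here. The windows of the middle pair share the 13 bases CGTCGTGTTCTCT. That stretch has 8 copies in the genome, 3 of them in this intron of 7776 bp, and all 3 lie in these windows.
pqn-41 site 1: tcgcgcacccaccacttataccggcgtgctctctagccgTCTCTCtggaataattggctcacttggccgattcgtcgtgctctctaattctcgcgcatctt
pqn-41 site 2: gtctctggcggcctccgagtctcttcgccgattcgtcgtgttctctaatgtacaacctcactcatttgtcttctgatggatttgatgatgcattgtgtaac
pqn-41 site 3: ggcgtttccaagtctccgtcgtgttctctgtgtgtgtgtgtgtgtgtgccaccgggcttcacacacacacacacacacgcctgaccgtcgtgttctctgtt
pqn-41 site 4: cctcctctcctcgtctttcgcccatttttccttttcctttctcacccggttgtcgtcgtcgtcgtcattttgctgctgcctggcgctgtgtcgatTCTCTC

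The last set shows runs of GAGAGA at summits in zfp-1 at chrIII:8800310-8800410, daf-5 at chrII:14040365-14040465 and lin-42 at chrII:1238021-1238121. The daf-5 and lin-42 windows each hold an unbroken run that gives 3 overlapping matches.
zfp-1: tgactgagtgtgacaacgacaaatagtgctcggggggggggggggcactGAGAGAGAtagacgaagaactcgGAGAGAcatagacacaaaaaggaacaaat
daf-5: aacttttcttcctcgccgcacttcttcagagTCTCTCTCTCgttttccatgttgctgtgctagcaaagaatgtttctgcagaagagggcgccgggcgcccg
lin-42: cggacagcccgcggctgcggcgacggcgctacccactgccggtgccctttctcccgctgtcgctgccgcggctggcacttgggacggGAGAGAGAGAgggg

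The 4 lists did not hold the same sites. The pooled list, made from both replicates, held 100 of the 133 sites, the other series-wide list, termed conservative by its name, held 97, and the lists of replicate 1 and replicate 2 held 59 and 44. Of all 54915 candidate regions of the pooled ranked list, 1.56% were kept in the pooled list. All lists kept peaks at an irreproducible discovery rate (IDR) of 0.01 or less, a measure of how well the ranks of peaks repeat between the inputs compared. In both replicates' own lists were 28 sites (21.1%, 95% Wilson interval 15.0 to 28.7%), in replicate 1's alone 31, in replicate 2's alone 16, and in neither 58 (43.6%, 35.5 to 52.1%). The share in neither list was 33.7% in promoter sites, 34.9% in sites near small RNA genes, 37.3% in other intergenic sites and 49.0% in exonic sites. The share in both lists was 26.6% over all 1023 regions (24.0 to 29.4%) and 13.6% in exonic sites (8.98 to 20.1%). It was 27.1% in other intergenic sites (20.9 to 34.3%) and 33.2% in promoter sites (28.5 to 38.1%). The difference from promoter sites, intronic minus promoter, was -12.1 percentage points (95% Newcombe interval -19.9 to -3.12). It was -8.92 (-18.4 to 1.83) among sites of the pooled list alone, -7.01 (-20.6 to 6.88) without replicate 2, that is among sites of replicate 1's list, and -6.46 (-14.4 to 2.70) with promoter windows of 2000 bp, and these intervals include 0.

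Most sites in neither replicate's thresholded list ranked high among the candidates of the full ranked lists. Such sites were kept by a series-wide list made from both replicates, so their high ranks follow in part from how they were chosen. A peak was present in both replicates' full ranked lists at 123 of the 133 sites. Over all sites with a candidate peak in the replicate concerned, the median site had a signal above 98.4% of replicate 1's candidate peaks (95% interval of the median 98.1 to 98.8%) and above 98.4% of replicate 2's (98.1 to 98.6%). For sites in neither list the medians were 97.7% (n = 57, 97.3 to 98.1%) and 97.6% (n = 56, 97.0 to 98.1%). Sites in 1 of the lists went down to 67.8% in replicate 1 and 61.6% in replicate 2. Signal is the peak caller's own value, with no stated scale, so it was compared within a list or by rank. Sites in both lists had a median of 122 in the pooled list (n = 28, 95% interval 100.4 to 173), those in 1 of the lists 74.8 (n = 32, 70.8 to 81.0) and those in neither 63.9 (n = 40, 61.4 to 65.6). The groups were set by thresholds on the same libraries, so this order follows from the grouping. Across the 123 sites, signal in replicates 1 and 2 had a Spearman rho of 0.348, and across 358 promoter sites 0.633. These points share the same libraries, and their range is narrowed by the lists' own thresholds.

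**Figure D1:**
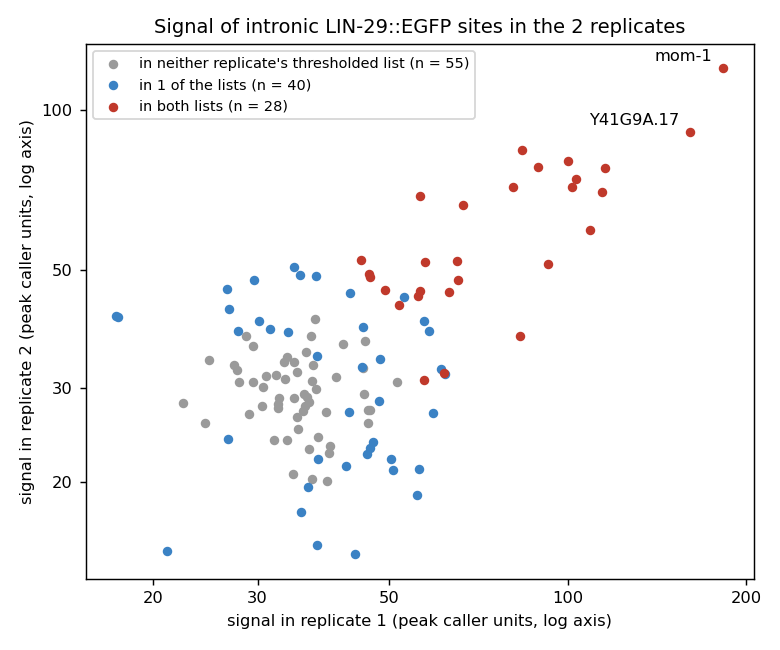
Signal of each intronic site in replicate 1 (x axis) and replicate 2 (y axis), in peak caller units on log axes, for the 123 sites with a candidate peak in both. Colours give the number of replicates' thresholded lists that hold the site. The 28 sites in both lists fill the upper right, up to mom-1, and the 55 in neither fill the lower left.

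Intronic sites had lower signals than promoter sites. In the pooled list their median signal was 74.2 (n = 100, 95% interval of the median 70.1 to 78.7, quartiles 64.5 and 94.8), against 83.9 for promoter sites (n = 325, 81.1 to 91.4, quartiles 67.8 and 127), and these intervals do not overlap. Exonic sites had a median of 68.1 (n = 105, 64.4 to 72.9), with an interval that overlaps that of intronic sites. In replicate 1's list the medians were 55.8 (n = 59, 48.02 to 58.3) and 64.0 (n = 216, 57.9 to 70.3), and in replicate 2's 48.2 (n = 44, 45.3 to 51.9) and 60.9 (n = 147, 55.3 to 67.0). The order was the same in all 3 lists, with overlapping intervals in replicate 1 alone. The strongest intronic site reached 305 in the pooled list and the strongest promoter site 575. Of candidate regions of the pooled ranked list that lie in introns by the same rule, 0.655% were kept in the pooled thresholded list (100 of 15270, 95% Wilson interval 0.539 to 0.796%), against 3.40% in promoters (325 of 9550, 3.06 to 3.79%), 0.556% in exons (0.460 to 0.672%) and 1.56% of candidates at all locations.

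The strongest site lay in the last of 7 introns of mom-1, the worm's Porcupine, an enzyme that Wnt proteins need for their secretion. It had a signal of 305 in the pooled list, of 183 in replicate 1 and of 120 in replicate 2. It ranked above every other intronic site in all 3 lists and lay 100 bp from the nearer splice site. The site in Y41G9A.17 followed, with 260 in the pooled list, 161 in replicate 1 and 91.1 in replicate 2, in the last of 6 introns. Both genes have no annotated internal start.

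The other 10 of the 12 strongest sites of the pooled list spanned 150 to 197 and were in both replicates' lists. The site of max-2, a p21-activated kinase that acts in axon guidance, reached 197, with 115 in replicate 1 and 78.0 in replicate 2. That of mod-5, the serotonin reuptake transporter, reached 182, with 100.2 and 80.1. That of cmk-1, a calcium and calmodulin-dependent kinase, reached 180.1, with 109 in replicate 1 and 59.6 in replicate 2. These 3 windows are not single-copy. Of their 31-mers, 71.8% in max-2, 43.7% in cmk-1 and 0% in mod-5 occur once in the genome, and the part of reads from the other copies in these signals was not tested. The site of epg-9, which encodes the autophagy factor ATG101, was single-copy and reached 175, with 114 in replicate 1 and 70.3 in replicate 2. The remaining members of the 12 were in Y111B2A.12 (181), brc-1 (179), K11D2.4 (150) and pqn-41, which had 3.

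The 133 sites were in 113 host genes, each site in introns of 1 gene only. Of these, 99 hosts had 1 site and 14 had 2 or more, with 34 sites between them. Neighbouring sites in such a gene were 681 to 14473 bp apart, and 12 of the 20 neighbouring pairs shared an intron. Hosts were long genes. Their median length was 9.77 kb (95% interval 7.31 to 11.7 kb), and that of the 14 hosts of several sites 14.4 kb (12.6 to 19.1 kb), against 3.85 kb (3.75 to 3.94 kb) for all 6736 coding genes with an intronic candidate or site. Longer genes have more intronic bases in which a site can fall, and the comparison was not weighted for that. Of those 6736 genes, 1.68% were hosts.

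The gene pqn-41 stood at the head of the hosts, with 4 sites of high signal. It encodes a polyglutamine-rich protein that is needed for the death of the male linker cell, a migrating cell in which LIN-29 is also known to act. In the order of transcription its sites had signals of 124, 156, 167 and 173 in the pooled list. In replicate 1 the values were 56.3, 80.9, 83.9 and 89.2, and in replicate 2 they were 69.0, 71.8, 84.3 and 78.1. All 4 were in both replicates' lists and single-copy. The last lay 979 bp upstream of an annotated internal start, at the far end of the intron that holds all 4.

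The chromatin gene zfp-1, the homologue of mammalian AF10, also had 4 sites, spread over 2 introns and 6301 bp. The first had a signal of 118 in the pooled list, with 65.4 in replicate 1 and 47.9 in replicate 2, and was in both replicates' lists. The second was in replicate 1's list alone, at 44.2, with no candidate peak in replicate 2. The third was in the conservative list alone, at 61.9, and the one nearest the 3′ end had 74.0 in the pooled list and was in replicate 2's list at 34.5, with 37.8 in replicate 1's ranked list. The second and this last one were 946 and 645 bp upstream of internal starts. In ZK470.2 none of the 4 sites was in the pooled list. The conservative list held 3 of them, at 51.0 to 68.4, and replicate 1's list alone the other, at 35.5.

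**Figure D2:**
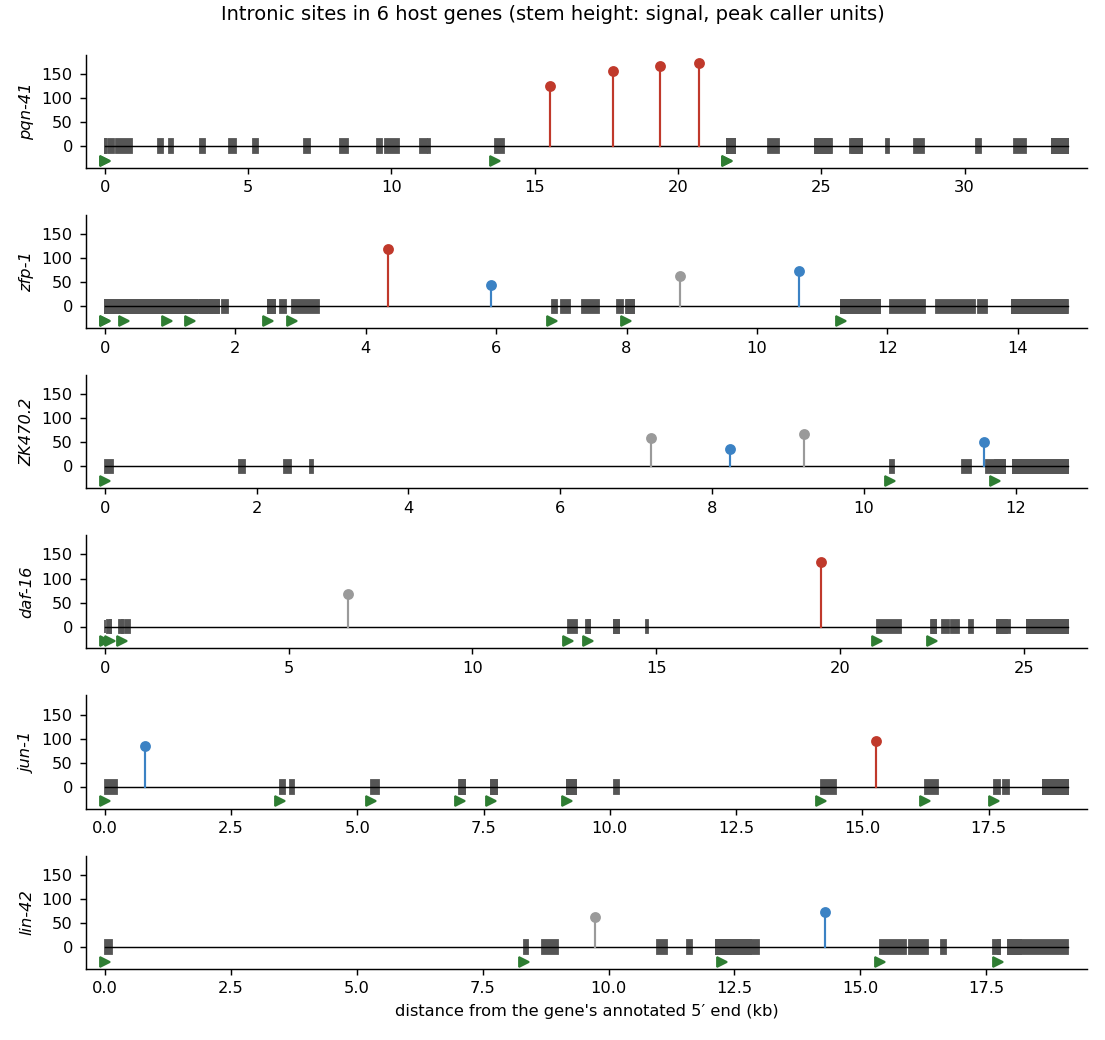
Host genes pqn-41, zfp-1, ZK470.2, daf-16, jun-1 and lin-42, drawn from their annotated 5′ end (x axis, kb), with exons of all transcripts as boxes, transcript starts as green arrowheads and sites as stems whose height is the signal (y axis, peak caller units). Stems are red for sites in both replicates' lists, blue for 1 and grey for neither. The 4 sites of pqn-41 stand in 1 intron, at 124 to 173.

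Hosts that act in signalling and gene control were among those with 2 sites. In daf-16, which encodes the FOXO protein at the end of the insulin pathway, a site in an intron of 7676 bp reached 135 in the pooled list, with 66.6 in replicate 1 and 66.3 in replicate 2. It lay 1536 bp upstream of an internal start. The second daf-16 site, 12853 bp away, had 68.3 and was in neither replicate's list, with 33.6 and 34.4 in their ranked lists. In jun-1, the Jun homologue, the site near the far end of the gene had 96.1 in the pooled list and was in both replicates' lists (56.02 and 44.7), 969 bp upstream of an internal start. The other jun-1 site, 792 bp downstream of the gene's 5′ end, had 84.3 in the pooled list, 59.3 in replicate 1 and 27.0 in replicate 2's ranked list.

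In daf-5, a Sno and Ski family protein of the dauer TGF-beta pathway, both sites were in the same intron of 14446 bp, with signals of 86.4 and 60.1 in the pooled list. The stronger was in both replicates' lists (57.3 and 31.1) and the weaker in neither. In lin-42, the Period homologue that times larval moults and heterochronic events, the sites had 73.2 and 62.0. The stronger was in replicate 2's list (49.0, against 35.4 in replicate 1's ranked list) and lay 1102 bp upstream of an internal start. Its window had a GC content of 74.3%, the second highest of the 133. The pair of abts-4, an anion transporter of the SLC4 kind, had 89.0 and 73.9, that of mnk-1, a kinase of the MAP kinase-interacting type, 97.1 and, in replicate 1's list alone, 21.1, and that of brc-1, the BRCA1 orthologue, 179 and 100.4, with 40.8% and 38.0% single-copy sequence. The other hosts of 2 were Y111B2A.12 (181 and 63.9), ccch-1 (78.3 and 63.1), Y43F8B.2 (119.5 and, in replicate 1's list alone, 36.5) and Y62E10A.13 (59.3 and, in the conservative list alone, 74.9).

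Of 307 coding genes in 11 lists of developmental pathways, 208 had an intronic candidate or site, and 17 of those were hosts (8.17%, against 1.68% of all such genes). The lists were chosen with earlier results of these data known, so the 8.17% is a description and not an independent result. The listed genes with a candidate were longer, with a median of 7.71 kb (95% interval 6.69 to 9.18 kb). Insulin and dauer genes had 3 hosts of 16 with a candidate (daf-16, daf-5 and pdk-1), developmental timing genes 3 of 19 (lin-42, lin-14 and sea-2), and chromatin and transcription regulators 3 of 20 (zfp-1, nurf-1 and sma-9). TGF-beta genes had 2 of 14 (daf-5 and sma-9), nuclear hormone receptors with a named role 2 of 18 (nhr-23 and nhr-85), moulting and apical matrix genes 2 of 19 (nhr-23 and lin-42), vulval and uterine genes 2 of 22 (lag-1 and mpk-1), and cytoskeleton and junction genes 2 of 30 (tba-2 and vab-10). The listed Wnt genes had 1 of 15 (lit-1) and the listed neuronal and axon guidance genes 1 of 39 (unc-104). Seam cell and hypodermal regulators had 0 of 13. The lists do not hold every gene of these kinds. The hosts mom-1, max-2 and nhr-19, a nuclear hormone receptor gene with 89.5 in the pooled list, are in none of them and so in none of these counts.

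Of these listed hosts, daf-16, daf-5, zfp-1 and pdk-1 had a site that both replicates' lists held. Over all 133 intronic sites, 21.1% were in both lists. Among those not yet described, this was so of pdk-1, the kinase that acts below the insulin receptor, alone, with 95.8 in the pooled list, 46.5 in replicate 1 and 48.5 in replicate 2. The site of nurf-1, the large subunit of the NURF chromatin remodeller, had 96.7 in the pooled list and 57.2 in replicate 1's list, with 40.1 in replicate 2's ranked list. It lay 69 bp upstream of an internal start. The site of lit-1, the Nemo-like kinase of the Wnt pathway, had 78.7 and was in replicate 2's list (46.1), with 26.6 in replicate 1's ranked list. That of vab-10, a spectraplakin, had 72.5 and was in replicate 2's list (38.3), with 33.7 in replicate 1's ranked list.

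The sites in unc-104, a kinesin of synaptic vesicle transport (75.4), sma-9, the Schnurri homologue (74.5), nhr-85, a nuclear receptor of the Rev-Erb kind (71.6), nhr-23, the ROR-like driver of moulting (65.6), sea-2, a zinc finger protein (65.4), tba-2, an alpha tubulin (64.4), lag-1, the CSL factor of Notch signalling (62.9), and, from the conservative list, mpk-1, the ERK kinase (59.5), were in neither replicate's list. In lin-14, an early heterochronic gene whose product falls well before the L4 stage, a site was in replicate 2's list alone, at 35.7, with no candidate peak in replicate 1.

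Intronic sites lay in long introns. The intron around the summit (the shortest, where transcripts differ) had a median of 3146 bp (95% interval 2279 to 3573 bp), against 951 bp (931 to 974 bp) for 15139 intronic candidates of the pooled ranked list that no thresholded list kept. Introns of 2000 bp or more held 61.7% of the sites (53.2 to 69.5%) and 29.4% of those candidates, a difference of 32.3 percentage points (95% Newcombe interval 23.8 to 40.2). Of all intronic bases that the rule could have chosen, taken every 100 bp, 28.0% were in such introns. Sites were also farther from the nearer splice site, with a median of 733 bp (443 to 894 bp) against 194 bp (187 to 200 bp), and farther from the gene's 5′ end, 4242 bp (3043 to 5504 bp) against 2629 bp (2558 to 2708 bp). Relative to gene length the intervals overlapped, with medians of 46.2% (40.1 to 54.4%) and 45.3% (44.7 to 46.1%) of the way along the gene. The distance to a splice site is limited by the intron's length, and it was not compared within long introns.

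First introns held 48.1% of the sites (39.8 to 56.5%) and 34.9% of the candidates, a difference of 13.2 points (4.84 to 21.7), when an intron counted as first if it is so in any transcript. Counted in the longest transcript alone, the shares were 28.6% and 24.9%, with a difference of 3.62 (-3.40 to 11.8). Within introns of 2000 bp or more, where most sites were, 52.4% of 82 sites and 53.3% of 4445 candidates were in a first intron, a difference of -0.812 (-11.6 to 9.75). The excess in first introns was thus not detectable among long introns or in the longest transcript. Long introns held 43 of the 64 sites and 2367 of the 5287 candidates in a first intron of any transcript. Shorter introns were not compared on their own.

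Some sites stood close before a start of a shorter transcript. An annotated internal start lay within 1000 bp downstream of 29 sites (21.8%, 15.6 to 29.6%), against 11.9% of the candidates, a difference of 9.89 points (3.70 to 17.7). Within introns of 2000 bp or more the shares were 17.1% and 16.3% (difference 0.785, -5.93 to 10.4). Those introns held 14 of the 29 sites and 724 of the 1803 candidates before an internal start. Shorter introns were not compared on their own here either. Among hosts named by rule the closest were nurf-1 at 69 bp, ZK470.2 at 154 bp and tba-2 at 157 bp, and the strongest sites were brc-1 at 762 bp, pqn-41 at 979 bp and K11D2.4 at 956 bp. With those 29 counted as promoter sites of the shorter transcripts, 104 intronic sites remain. Hosts with an internal start anywhere held 73.7% of the sites and 51.4% of the candidates (difference 22.3, 14.2 to 29.1).

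**Figure D3:**
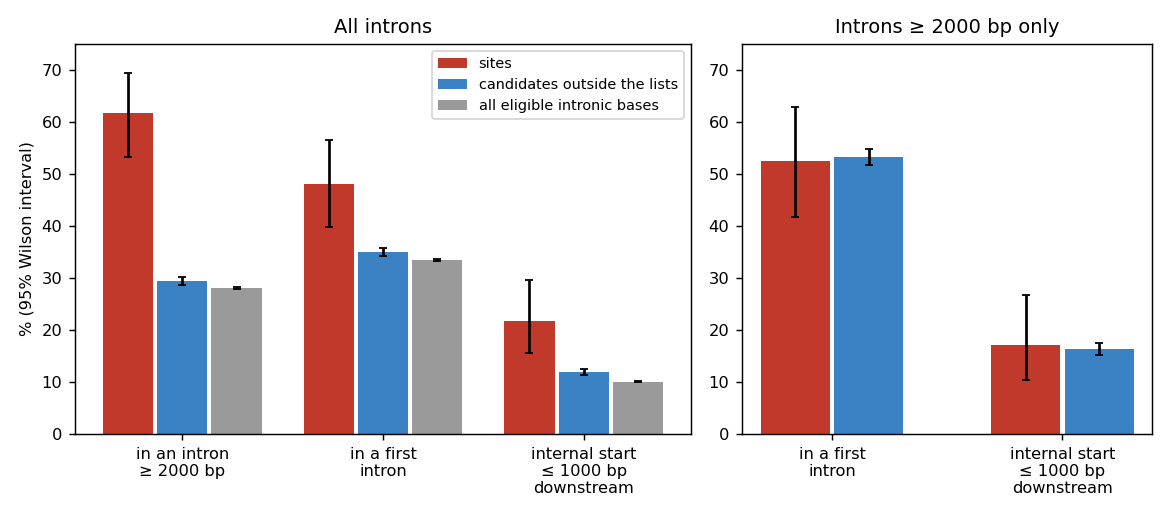
Share of intronic sites (red), of intronic candidates outside the lists (blue) and of all eligible intronic bases (grey) by position in the host gene, in percent with 95% Wilson intervals. On the left, 61.7% of the sites lie in introns of 2000 bp or more against 29.4% of the candidates. On the right, within such introns, the shares of sites and candidates are 52.4 and 53.3% in a first intron and 17.1 and 16.3% before an internal start, with overlapping intervals.

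The sequence at the summits was richer in G and C than its surroundings. The 101-bp windows had a median GC content of 48.5% (95% interval 46.5 to 49.5%), near the 49.5% (49.5 to 50.5%) of promoter sites, against 35.6% (33.7 to 36.6%) in windows 500 bp to either side. The rise was broader than at promoter sites. In windows centred 150 bp from the summit the median was 41.6% (39.6 to 42.6%) at intronic sites and 34.7% (33.7 to 35.6%) at promoter sites, and these intervals do not overlap.

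ACGCAG was present within 50 bp of the summit at 22 sites (16.5%, 95% Wilson interval 11.2 to 23.8%), in 1.504% of the flanking windows (0.586 to 3.80%), in 3.04% of the intronic candidates outside the lists (2.78 to 3.32%) and in 16.1% of all 1023 regions. Against the candidates the difference was 13.5 points (8.14 to 20.7), and it was 16.4 (8.13 to 27.6) between sites and candidates with a GC content of 41.6 to 53.5%, the middle range of the sites. Against promoter sites (19.7%) it was -3.18 (-10.1 to 4.97). Of its 24 matches at the sites with 3 bases before them in the window, 15 were preceded by GAG. That 9-mer, GAGACGCAG, was thus picked from these same sites, which favours its share at them. It was in 10.5% of intronic sites (6.37 to 16.9%), 10.1% of promoter sites, 7.53% of all regions, 1.11% of the candidates and 0.376% of the flanks. It was in 6 of the 28 sites in both replicates' lists and in 4 of the 58 in neither. ACGCAG lay on the host gene's strand alone at 11 sites, on the other strand alone at 10 and on both at 1.

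GAGAGA was the 6-mer with the greatest excess at the sites over their flanks, of 2080 6-mers counted on both strands together. It was in 40 sites (30.1%, 22.9 to 38.3%), in 8.65% of the flanks, in 5.67% of the candidates and in 20.7% of all regions. The difference from the candidates was 24.4 points (17.2 to 32.7), and 19.3 (9.97 to 30.9) in the middle GC range. From promoter sites (21.6%) it was 8.43 (-0.0167 to 17.6), which includes 0, and it was 13.3 (3.59 to 23.8) among single-copy sites. It was in 12 of the 28 sites in both replicates' lists (42.9%, 26.5 to 60.9%) and in 15 of the 58 in neither (25.9%, 16.3 to 38.4%). It lay on the host gene's strand alone at 14 sites, on the other strand alone at 25 and on both at 1. The second by excess was AGAGAC, which overlaps it in sequence, and ACGCAG came next. Both 6-mers were present in 11 sites, ACGCAG alone in 11, GAGAGA alone in 29 and neither in 82 (61.7%).

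The CG-rich 6-mers of promoter sites were rarer at intronic sites than at promoter sites. ACGCGC was in 6.02% of intronic and 17.8% of promoter sites (difference -11.8, -17.0 to -5.31), and GCGCGC in 5.26% and 12.9% (-7.61, -12.3 to -1.58). Both were more frequent at intronic sites than in the intronic candidates, with 2.61% (difference 3.41, 0.458 to 8.82) and 1.40% (3.86, 1.16 to 9.07). Within the middle GC range these differences were 4.26 (-0.499 to 13.4) and 0.480 (-1.71 to 7.66), with intervals that include 0. Runs of A were rarer at the sites than in the candidates. AAAAAT was in 27.8% against 49.7% (difference -21.8, -28.8 to -13.7), and AAAAAA in 31.6% against 42.8% (-11.2, -18.5 to -2.83). In the middle GC range neither run differed detectably, with differences of -1.75 (-10.9 to 9.86) and 4.98 (-4.60 to 16.7). Sites in the pooled list with ACGCAG had a median signal of 86.6 (n = 20, 67.6 to 97.1) and those without 73.4 (n = 80, 69.5 to 76.5), with overlapping intervals, and with and without GAGAGA it was 75.8 and 72.5.

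**Figure D4:**
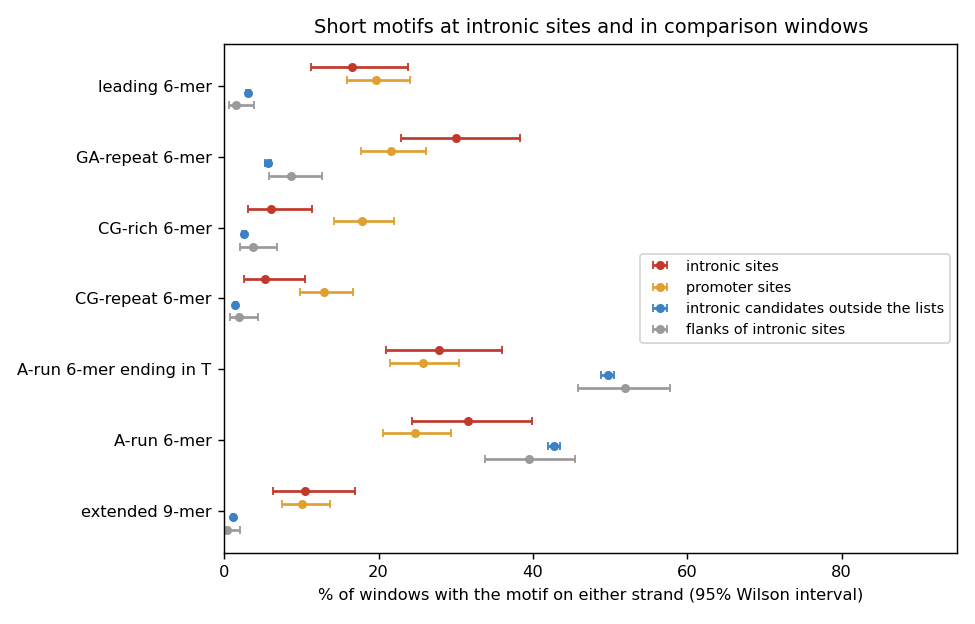
Share of 101-bp windows with each motif on either strand (x axis, percent with 95% Wilson intervals) at intronic sites, promoter sites, intronic candidates outside the lists and flanks 500 bp from intronic summits. The leading 6-mer is ACGCAG, the GA-repeat GAGAGA, the CG-rich ACGCGC, the CG-repeat GCGCGC, the A-runs AAAAAT and AAAAAA, and the extended 9-mer GAGACGCAG. The first pair is at 16.5 and 30.1% of intronic sites, with intervals above those of the candidates and flanks.

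**Figure D5:**
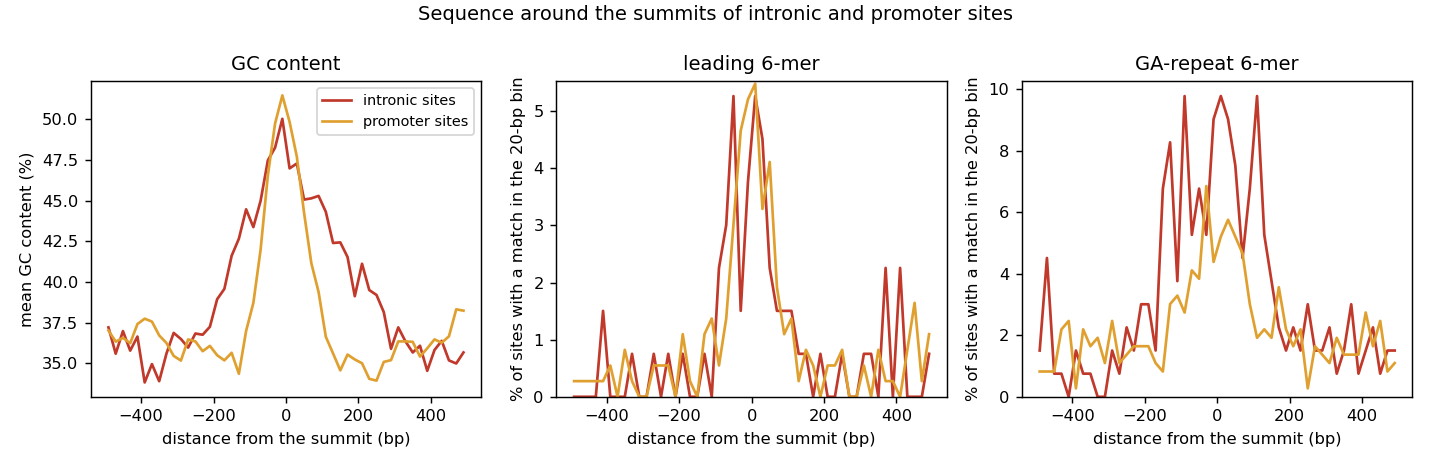
Mean GC content (left, percent) and share of sites with a match in each 20-bp bin (middle ACGCAG, right GAGAGA) by distance from the summit in bp, at intronic (red) and promoter (yellow) sites. The rise in GC content at intronic sites is wider than at promoter sites (medians of 41.6 and 34.7% at 150 bp), and ACGCAG matches gather within about 100 bp of the summits of both.

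Part of the intronic sites lay in repeated sequence. All 31-mers of the window occur once in the genome at 102 sites (76.7%, 68.8 to 83.1%), against 88.8% of promoter sites (difference -12.1, -20.4 to -4.73). The share was 89.1% in exonic sites (83.1 to 93.2%), 75.3% in other intergenic sites (68.2 to 81.2%) and 38.7% in sites near small RNA genes (32.4 to 45.4%). At 18 sites (13.5%) fewer than 50% do, against 7.40% of promoter sites (difference 6.14, 0.396 to 13.3). Of the 133 windows, 8 share a 31-mer with another of them, in 3 sets, namely brc-1 with B0511.11, F28F8.7 with rcor-1, and ptr-17, pmt-2, T24H10.5 and Y22D7AR.2. None of the neighbouring pairs in a host shares one.

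Hosts more often had other binding too. A promoter site lay within 1000 bp of the 5′ end of 8 of the 113 hosts (7.08%, 3.63 to 13.4%), against 2.64% of the other 6623 genes with an intronic candidate (difference 4.44, 0.964 to 10.7). Among the named hosts these were daf-16, with a promoter signal of 68.7, Y111B2A.12 (65.7) and tba-2 (86.4). An exonic site was in 14 hosts (12.4%) and in 0.906% of the other genes (difference 11.5, 6.61 to 18.8). Hosts are longer than those genes, and the part of length in these differences was not tested.

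Other noncoding genes lay within 500 bp of 20 sites. They were ncRNA genes at 13 sites, pseudogenes at 5, microRNA genes at 4 and piRNA genes at 1, where 1 site can have several kinds. No share over the intronic candidates stands beside these counts, which are thus a description and show no excess. A summit in gcn-1 with a signal of 69.5 lay 259 bp upstream of cel-mir-229, and a summit in Y67D8A.2 with 57.6 lay 258 bp upstream of cel-mir-58a, an abundant microRNA of the bantam family. A summit in F09A5.3, which replicate 2's list alone holds at 24.1, lay 204 bp upstream of cel-mir-54 and 374 bp upstream of cel-mir-55. A summit in B0361.11, with 54.3, lay 40 bp upstream of mir-2214. Both daf-16 sites had an ncRNA gene on the other strand within 500 bp, R13H8.5 at 116 bp and R13H8.4 at 26 bp.

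By chromosome the 133 sites were spread over all 6, with 31 on III, 26 on II, 25 on I, 20 on X, 17 on V and 14 on IV. The share on III was 23.3% (16.9 to 31.2%), against 17.8% of the candidates, a difference of 5.46 points (-0.944 to 13.4). On X were 15.0% of the sites (9.95 to 22.1%) and 16.3% of the candidates. The lowest signal of an intronic site in the conservative list was 5.58, in let-526, which no other thresholded list held. In the ranked lists the let-526 site had 64.5 in the pooled one, 37.9 in replicate 1's and 24.3 in replicate 2's. At the rule's promoter limit, the nearest sites kept were 1050 bp upstream of Y54G2A.73 (55.0) and 1098 bp upstream of eif-3.G (49.1), and the nearest left out were 996 bp upstream of ift-43 (176) and 929 bp upstream of cyn-5 (61.2).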

How the data were processed

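ChIP-seq of LIN-29::EGFP in 2 biological replicates was deposited as lists of peaks in ce11: a ranked and a thresholded list for each replicate, and 2 of each kind for the series. Per the deposited manifests, the series-wide lists derive from the alignments of both replicates, and each list also from an input whose role is not stated. Which aligner and caller made them is not given in the sources used here, nor is the reads' depth. The deposited score of a peak, made by the authors, rises to 1000 as its IDR falls, and the lowest score in each thresholded list is 830, an IDR of 0.01. The deposited signal of a peak is the authors' peak caller value, of unstated scale.

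Peaks overlapping by 1 bp or more were merged, keeping the summit (the deposited offset in each peak) and signal of the strongest. Genes came from Ensembl release 115 of WBcel235 and sequence from its RefSeq genome. Coordinates are 1-based. Motifs were searched on both strands within 50 bp of a summit. A window is single-copy where its 31-mers occur once in the genome. An internal start is a host transcript's 5′ end over 50 bp from the gene's own.

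Shares have 95% Wilson intervals, differences of shares 95% Newcombe intervals (called where they leave out 0), and medians order-statistic intervals. These cover counting error over sites, which are not replicates. For flanking windows they count the 2 windows of a site as separate and may be too narrow. Named were the 12 strongest sites of the pooled list, hosts of 2 or more sites and hosts in the 11 lists, of whose 318 names 307 matched a coding gene; any other was named after its values were seen. The members, lists and motifs were chosen with earlier results of these data known, and the comparisons within long introns and within the middle GC range after seeing the data. The code was tested on simulated data. Python 3.11.15, numpy 2.4.6 and scipy 1.17.1 were used.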

Additional observations from a re-analysis of the deposited data

How the results depend on the processing

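The number of intronic sites stayed within 97 to 149 for other promoter widths, small RNA distances, exon sets and series-wide lists, and was 43 to 62 with 1 replicate left out. Those smaller sets had median pooled signals of 95.8 to 100.4, ACGCAG shares of 25.6 to 25.8%, and held 0.370 to 0.542% of the intronic candidates of their own ranked list. The difference in the share in both replicates' lists included 0 in the pooled list alone (-8.92), without replicate 2 (-7.01, against -16.8 without replicate 1) and with promoter windows of 2000 bp (-6.46). The ACGCAG difference from promoter sites, whose interval included 0 throughout, was 0 in the pooled list alone and 3.36 to 4.21 with 1 replicate left out, against -3.18 in all sites, so it has no settled direction. The GAGAGA difference left out 0 in the pooled list alone (10.8), without either replicate (13.7 to 16.4), in single-copy sites (13.3) and with promoter windows of 500 bp (9.62). First introns of the longest transcript held 28.6%. Internal starts within 500 and 2000 bp lay before 12.03 and 33.1%. In windows of 25 and 100 bp to either side, ACGCAG was in 9.02 and 24.8% and GAGAGA in 16.5 and 44.4%, and median GC content at 100 bp was 44.8%. The width of the window or distance sets these last values by construction. With 2 replicates and unknown depth, a site absent from a replicate and a site missed in it cannot be told apart. No paired analysis was possible because there is 1 group.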
